A study of Homo sapiens with 18 samples.

Results

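Expression of 10 genes of the BCL2 family was examined in platinum-sensitive and platinum-resistant ovarian cancer cell lines. The genes were BCL2, BCL2L1, BCL2L2, MCL1, BAK1, BCL2L11, BID, BIK, BMF and PMAIP1, picked by gene symbol, and all 10 were present among the 12853 genes of the RNA-seq table. Proteins of this family decide whether the outer membrane of the mitochondrion stays intact or is opened, which releases cytochrome c and starts the caspase cascade. Guardians such as BCL2 and MCL1 hold the effectors BAK1 and BAX in check, and the BH3-only proteins, which share a short helix called the BH3 domain, either bind and neutralise the guardians or activate the effectors. Cisplatin acts through DNA adducts, and in many cells the death that follows runs through this mitochondrial step.

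RNA-seq libraries were made in triplicate from 6 lines grown without any drug named in the sample labels, which gave 18 libraries in 3 pairs of a sensitive and a resistant line. A2780 is a sensitive line that the labels describe as endometrial/ovarian, and CP70 (A2780cp70) is its derivative made resistant to platinum in culture. PEA1 came from the ascites of a patient with high-grade serous ovarian cancer before platinum treatment, and PEA2 from the same patient at relapse with resistant disease. PEO1 and PEO4 were both derived from another such patient after platinum chemotherapy had begun, PEO1 while the disease still responded and PEO4 once it no longer did. Each pair stands for 1 origin, so a difference between the lines of a pair is a difference between those lines. All lines were grown in RPMI-1640 with glutamine and fetal bovine serum, and total RNA was depleted of ribosomal RNA before strand-directional libraries were made. The labels do not say whether replicates came from separate cultures, so the tests measure the spread between libraries, which may be technical.

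Values are normalised read counts on a log2 scale, in log2 CPM (counts scaled to a common library size) with a small addition to each count. The libraries held 1344098 to 7067336 reads on the listed genes, with PEA1 the shallowest line, and 3 reads corresponded to 0.452 to 2.18 CPM. The spread between replicates exceeded counting noise (chi-square per degree of freedom 1.74 to 13.5), most in the pairings with the deepest PEO1 library, and no 2 libraries looked alike enough to be counted as 1. PEA2, PEO1 and PEO4 expressed all 6 epithelial and all 5 serous ovarian markers examined. A2780 held more than 3 reads in a library for 1 epithelial marker (EPCAM) and for none of the serous markers, and CP70 for 3 and 1 of them. Lines of the PEA pair differed strongly in these markers, with summed epithelial markers of 154 to 202 CPM in PEA1 and 3742 to 3915 CPM in PEA2. The sum of the 3 fibroblast markers in the table went the other way, with 366 to 447 CPM in PEA1, all of it COL1A1 since COL1A2 and DCN were at 0, and 3.45 to 6.40 CPM in PEA2. PTPRC, a leukocyte gene, and CDH5, an endothelial gene, reached 20.1 to 25.1 CPM and 25.3 to 36.1 CPM in PEA2 and did not exceed 3 reads in any library of the other lines. The part of these marker differences in the PEA results below was not tested. In bulk RNA, a change in the mixture of cells and a change in the RNA per cell cannot be told apart.

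The BH3 domain is the feature that ties the family together, and its coding bases are shown because the BH3-only members below are named after it. The bases do not set those members apart, since BCL2, BCL2L1, MCL1 and BAK1 are listed with them. The coding sequence of each member's reference transcript (GENCODE on GRCh37) was searched for a leucine codon, any 3 codons, a glycine or alanine codon and an aspartate codon. The pattern was found exactly once in 9 members and not at all in BCL2L2. It occurred at least once in 11.8% of the 7224 coding sequences of at most 350 codons, the length of the longest member (MCL1). The pattern describes the BH3 core of this family, so finding it in the members was largely fixed in advance. The share shows only how common the pattern is. The search asked for this fixed pattern only, so it does not show that BCL2L2 lacks a BH3 domain. The 24 bases below run 5′ to 3′ on the coding strand, with codons 5 and 6 of the pattern in capitals.
BCL2 (chr18:60985588-60985611, minus strand, exon 2): ctccgccaggccGGCGACgacttc
BCL2L1 (chr20:30309731-30309754, minus strand, exon 2): ctgagggaggcaGGCGACgagttt
MCL1 (chr1:150551347-150551370, minus strand, exon 1): ttacgacgggttGGGGATggcgtg
BAK1 (chr6:33543170-33543193, minus strand, exon 4): ctcgccatcatcGGGGACgacatc
BCL2L11 (chr2:111907680-111907703, plus strand, exon 3): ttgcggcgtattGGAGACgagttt
BID (chr22:18222187-18222210, minus strand, exon 4): ctcgcccaggtcGGGGACagcatg
BIK (chr22:43523722-43523745, plus strand, exon 3): ctggcctgcatcGGGGACgagatg
BMF (chr15:40396402-40396425, minus strand, exon 4): cttcagtgcattGCAGACcagttc
PMAIP1 (chr18:57569905-57569928, plus strand, exon 2): ctcaggagatttGGAGACaaactg

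BMF is the member with an alanine codon (gca) in place of glycine, and MCL1 the member whose aspartate codon is gat. The counts are per gene and do not separate isoforms. BCL2L1, BCL2L11, MCL1 and BID are known for isoforms with different effects on cell death, and the values below are sums over them.

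All 10 members differed among the 6 lines (limma F-test, false discovery rate (FDR) from 1.62e-15 for BCL2L1 to 0.000692 for BAK1), against 97.5% of all genes. Line means ranged most widely for PMAIP1, over 7.62 log2 units, followed by BIK over 6.46 and BCL2 over 4.65. They ranged least for BAK1 and BCL2L2, over 1.45 log2 units in each, and over 1.55 for MCL1. The plot of all members by line shows these levels.

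**Figure D1:**
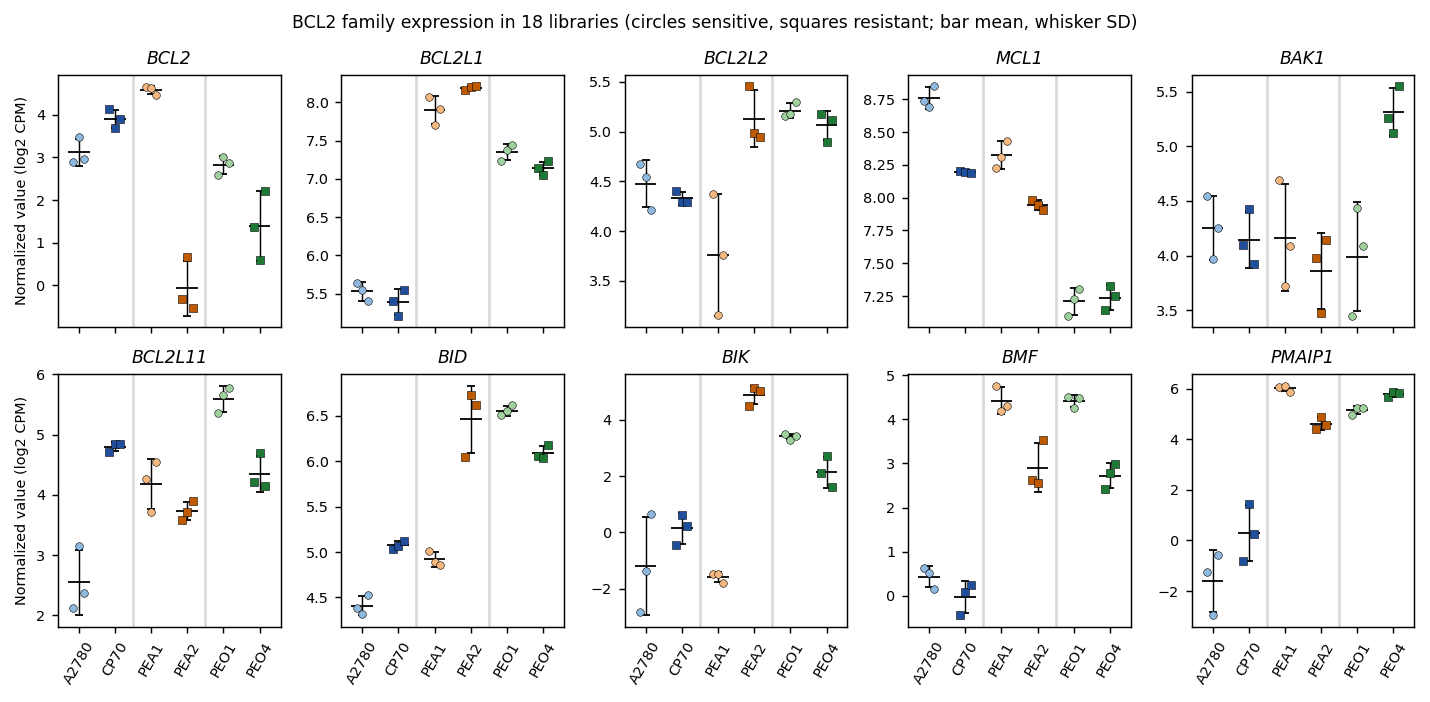
Normalised value (log2 CPM) of each of the 10 genes in the 18 libraries, with circles for sensitive and squares for resistant lines, a bar for the mean of 3 libraries and whiskers for the SD. PMAIP1 spans 7.62 log2 units between the line means of PEA1 and A2780, and BAK1 stands above the other 5 lines in PEO4 alone; each panel has its own vertical scale.

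CP70 differed from A2780 in 4 of the 10 members (limma, FDR below 0.05 over all genes), against 39.9% of all genes tested. BCL2L11, BID and PMAIP1 were higher in CP70 and MCL1 was lower (3 and 1 members, against 22.2% and 17.7% of all genes). PEA2 differed from PEA1 in 8 members, against 61.9% of all genes. BCL2L1, BCL2L2, BID and BIK were higher in PEA2 and BCL2, MCL1, BMF and PMAIP1 were lower (4 and 4 members, against 32.5% and 29.4%). PEO4 differed from PEO1 in 5 members, against 41.5% of all genes. BAK1 was higher in PEO4 and BCL2, BCL2L11, BID and BMF were lower (1 and 4 members, against 19.6% and 21.9%). The counts for the A2780 and PEO pairs lie near the share over all genes, and each list has only 10 members. The libraries of the resistant and the sensitive line did not overlap for 4, 8 and 8 members in the A2780, PEA and PEO pairs, against 54.6%, 62.6% and 57.5% of all genes. With a log2FC beyond 1 in either direction as well, 2, 6 and 4 members passed, against 19.2%, 33.6% and 18.8%. With one beyond 2, the study's own threshold, BCL2L11 passed in CP70, BCL2 and BIK in PEA2 and none in PEO4, which is 1, 2 and 0 members against 9.06%, 14.1% and 6.22%. The median log2FC of the members was 0.28 for CP70, -0.34 for PEA2 and -0.34 for PEO4, beside -0.02, 0.01 and -0.02 over all genes.

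**Figure D2:**
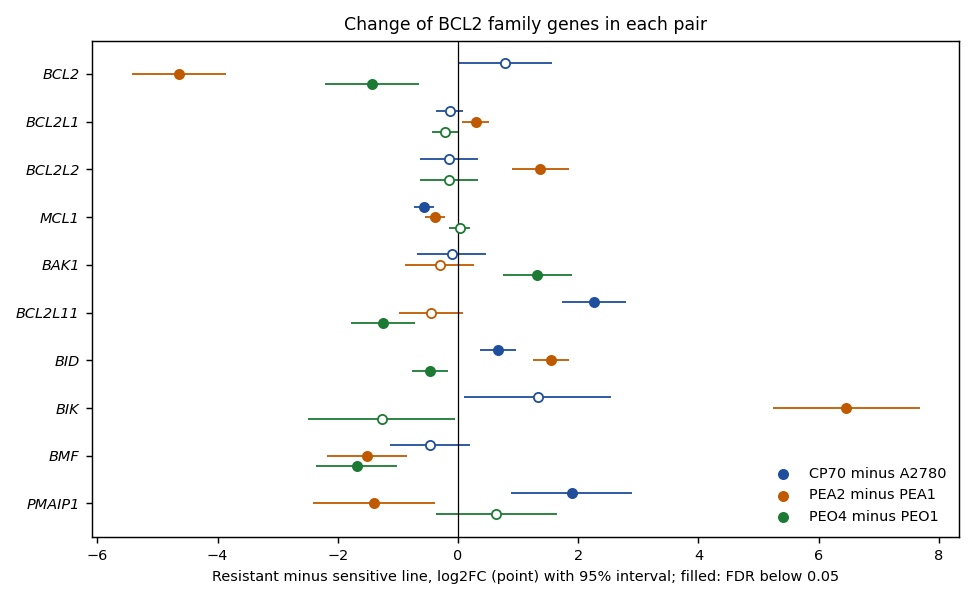
Difference of each gene, resistant minus sensitive line, in the 3 pairs, as log2FC (points) with its 95% interval from limma (lines), filled where the FDR is below 0.05. BIK and BCL2 in the PEA pair, at 6.46 and -4.65, lie farthest from 0, and BID is the gene with filled points in all 3 pairs, on both sides of 0.

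Across the pairs, BID was the only member that passed the test in all 3, and it did so in both directions. BCL2, MCL1, BCL2L11, BMF and PMAIP1 passed in 2 pairs and the other 4 members in 1, so that 6 of the 10 passed in at least 2, against 46.4% of all genes. Passing in all 3 held for 12.7% of all genes. BCL2L11, BID and PMAIP1 passed as higher in the resistant line of a pair and as lower in that of another, which held for 27.5% of all genes. No member passed in 1 direction in all 3 pairs, which held for 2.80% of all genes. BMF had a negative log2FC in all 3 pairs but did not pass in the A2780 pair (FDR 0.273). In that pair its libraries overlapped and held only 2 to 5 reads each, so the direction there is uncertain. The size of the change differed among the pairs for all 10 members (limma F-test of the difference, FDR below 0.05), against 75.3% of all genes. For BMF this result (FDR 0.0394) was lost in many of the alternatives.

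Among the guardians, BCL2, which gave the family its name, was lower in 2 of the 3 resistant lines. Its values were 4.65, 4.62 and 4.47 in PEA1 and -0.32, 0.66 and -0.54 in PEA2, where the libraries held 1, 5 and 1 reads. PEA1 had the highest mean of the 6 lines and PEA2 the lowest, with no overlap between them. The log2FC was -4.65 (SE 0.38, FDR 2.01e-09), and quantile normalisation and an addition of 2 reads to each count moved it to -5.39 and -3.92. From the reads, BCL2 was 25.3-fold lower in PEA2, with a 95% interval of 11.8 to 64.3 that covers counting error only.

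For the PEO lines, BCL2 values were 2.59, 3.01 and 2.87 in PEO1 and 1.38, 0.59 and 2.22 in PEO4. All 3 PEO4 libraries lay below all 3 PEO1 libraries, although PEO4 replicates were spread widely and held 4 to 11 reads. The log2FC was -1.43 (SE 0.38, FDR 0.00435), or -2.14 with quantile normalisation. In the A2780 pair the values were 2.89, 3.49 and 2.97 in A2780 and 4.12, 3.69 and 3.89 in CP70. The CP70 libraries were all higher, but the difference of 0.79 (SE 0.38) did not pass the test over all genes (FDR 0.105). It passed when the pair was fitted alone (FDR 0.0182) and with voom weights (FDR 0.00952).

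MCL1, a short-lived guardian that is turned over within hours, was the most abundant or next most abundant member per length in 5 of the lines. It was 1.48-fold lower in CP70 and 1.30-fold lower in PEA2. Values were 8.73, 8.69 and 8.85 in A2780 and 8.21, 8.20 and 8.18 in CP70, a log2FC of -0.56 (SE 0.08, FDR 1.09e-05). In the PEA pair they were 8.23, 8.31 and 8.43 in PEA1 and 7.98, 7.94 and 7.91 in PEA2, a log2FC of -0.38 (SE 0.08, FDR 0.000437). The libraries of the lines did not overlap in either pair, and replicates of a line lay close together. PEO1 and PEO4 overlapped, from 7.10 to 7.30 and from 7.14 to 7.32, and the difference was 0.03 with a 95% interval of -0.14 to 0.20. MCL1 overlaps ADAMTSL4 on the opposite strand, and the sources used here do not say whether reads were counted by strand. Of 46 genes within 1 Mb of MCL1, 16 were lower and 6 higher in CP70, with a median log2FC of -0.13. In PEA2 17 were lower and 4 higher, with a median of -0.25. In PEO4 13 were lower and 5 higher, with a median of 0.02. The part of DNA copy number, which was not measured, was not tested.

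BCL2L1, which encodes the guardian BCL-XL and its shorter pro-death isoform, was lower in A2780 and CP70 than in the serous lines. The 6 libraries of A2780 and CP70 had values of 5.21 to 5.64, and the 12 libraries of the serous lines 7.05 to 8.21. Within the PEA pair the values were 8.07, 7.70 and 7.91 in PEA1 and 8.16, 8.20 and 8.21 in PEA2. The log2FC of 0.29 (SE 0.11, FDR 0.0221) was not stable, since the FDR was 0.420 with quantile normalisation, 0.134 without PEA1 replicate 2 and 0.0533 without PEA2 replicate 3. PEO4 differed from PEO1 by -0.21 (FDR 0.123) and CP70 from A2780 by -0.14 (FDR 0.328).

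BCL2L2, which encodes the guardian BCL-w, had its lowest mean in PEA1 and was higher in PEA2. The PEA1 libraries had values of 4.37, 3.15 and 3.76 and rested on 12 to 28 reads, and the PEA2 libraries had 5.46, 4.99 and 4.95. The groups did not overlap, and the log2FC was 1.37 (SE 0.23, FDR 3.30e-05). In the other pairs the lines overlapped, with differences of -0.15 (95% interval -0.63 to 0.33) in the A2780 pair and -0.15 (-0.63 to 0.33) in the PEO pair. BCL2L2 shares exons with the read-through transcript BCL2L2-PABPN1 on its own strand, so its reads are uncertain in that respect.

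Levels of different members were compared per kb of exon, with exon lengths from GENCODE on GRCh37, whereas the authors counted on UCSC gene models, so these levels carry that uncertainty. MCL1 was the highest member per kb in A2780 and CP70, and BCL2L1 was the highest in PEA1, PEA2, PEO1 and PEO4. On the log2 scale per kb, MCL1 exceeded BCL2L1 by 2.66 ± 0.19 (SD, n = 3) in A2780 and by 2.24 ± 0.18 in CP70. The difference was -0.14 ± 0.24 in PEA1 and -0.82 ± 0.06 in PEA2, and it was -0.71 ± 0.01 in PEO1 and -0.47 ± 0.15 in PEO4. The balance of MCL1 to BCL2L1 was thus lower in the resistant line of the A2780 and PEA pairs and higher in that of the PEO pair, with no overlap of the libraries within any pair. Within a pair these differences do not depend on exon length. The balance itself was not tested. Libraries of a pair also did not overlap for 54.6%, 62.6% and 57.5% of single genes in the A2780, PEA and PEO pairs. In the PEO pair neither gene passed the limma test on its own (FDR 0.814 for MCL1 and 0.123 for BCL2L1). In the A2780 pair MCL1 passed and BCL2L1 did not (FDR 0.328). The plot of the guardians per kb shows this order of levels.

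**Figure D3:**
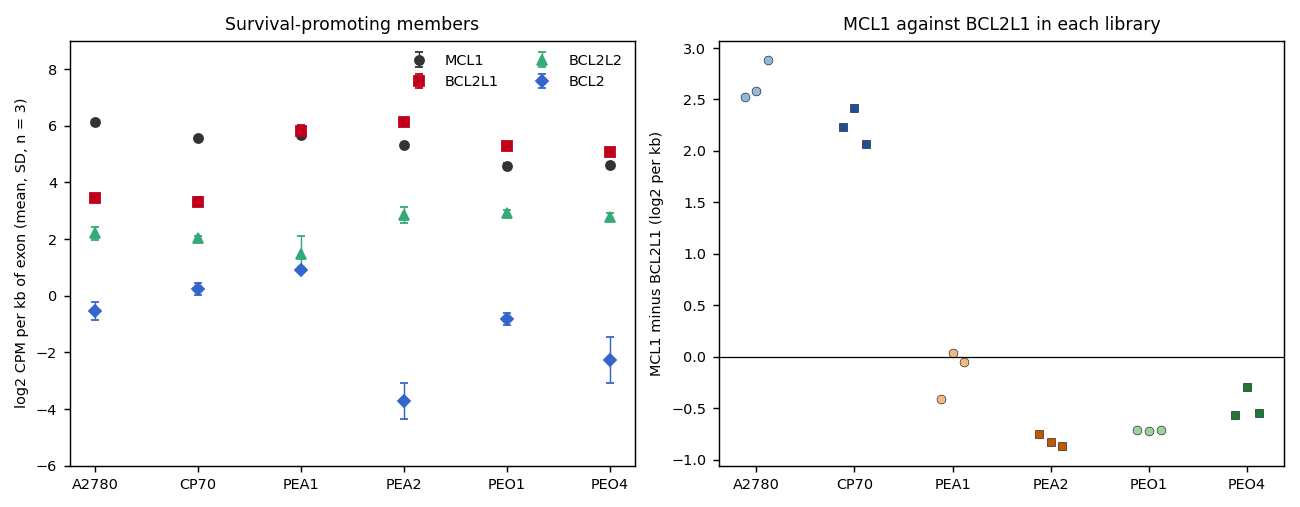
Left, mean level of the 4 guardians per kb of exon (log2 CPM per kb, whiskers SD, n = 3) in each line; right, MCL1 minus BCL2L1 (log2 per kb) in each of the 18 libraries, with circles for sensitive and squares for resistant lines. The difference lies between 2.06 and 2.88 in A2780 and CP70 and between -0.87 and 0.04 in the serous lines.

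As a share of the summed level of the 4 guardians per kb, MCL1 made up 81.0% in A2780 and 75.4% in CP70. In the serous lines it made up 45.6% in PEA1 and 33.5% to 37.3% in the other 3 lines. BCL2L1 made up 50.2% to 59.8% in those 4 lines and 12.8% and 16.0% in A2780 and CP70. BCL2 never exceeded 1.90% and fell to 0.0650% in PEA2. Among these 4 genes, MCL1 and BCL2L1 together thus made up most of the summed level per kb in every line, with all isoforms counted.

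BAK1, the only pore-forming effector among the 10 genes, was higher in PEO4 than in every other line. Its values were 3.45, 4.44 and 4.08 in PEO1 and 5.26, 5.12 and 5.55 in PEO4, with no overlap. The log2FC was 1.32 (SE 0.28, FDR 0.000624), a 2.50-fold difference. In the other 5 lines all libraries lay between 3.45 and 4.69. The differences there were -0.11 (95% interval -0.68 to 0.47) in the A2780 pair and -0.30 (-0.88 to 0.27) in the PEA pair.

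The genes around BAK1 on chromosome 6 moved with it in the PEO pair. Of 30 other genes whose span lay within 1 Mb of that of BAK1, 26 were higher in PEO4 and 0 lower (FDR below 0.05), and their median log2FC was 1.07. The median was 0.97 over 235 genes within 10 Mb and 0.47 over 644 genes of the whole chromosome. In the A2780 and PEA pairs the median of the same 30 genes was -0.03 and 0.09. The rise of BAK1 was therefore close in size to that of its neighbourhood; DNA copy number was not measured in these data, and its part was not tested.

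Of the BH3-only members, BCL2L11 encodes BIM, which binds all the guardians and can activate the effectors. It was higher in CP70 and lower in PEO4. Values were 2.12, 3.15 and 2.36 in A2780 and 4.71, 4.85 and 4.85 in CP70. A2780 was the lowest of the 6 lines, and the log2FC of 2.26 (SE 0.26, FDR 4.34e-07) was the largest of any member in this pair. The 11 neighbouring genes within 1 Mb had a median log2FC of -0.21, so BCL2L11 moved apart from them.

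BCL2L11 values in the PEO pair were 5.36, 5.66 and 5.78 in PEO1, the highest of the 6 lines, and 4.21, 4.69 and 4.14 in PEO4. The lines did not overlap, and the log2FC was -1.25 (SE 0.26, FDR 0.000520). In the PEA pair the values overlapped, from 3.72 to 4.54 in PEA1 and from 3.59 to 3.89 in PEA2. The difference of -0.45 did not pass the test (FDR 0.137), but it was -0.67 and passed without PEA1 replicate 2 (FDR 0.0351). BCL2L11 overlaps the long non-coding gene MIR4435-2HG on the opposite strand.

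BID, which caspase-8 cleaves to link death receptors to the mitochondrion, changed in all 3 pairs. It rose in CP70, with values of 4.38, 4.32 and 4.52 in A2780 and 5.04, 5.07 and 5.12 in CP70, a log2FC of 0.67 (SE 0.14, FDR 0.000702). It rose further in PEA2, with 5.01, 4.89 and 4.86 in PEA1 and 6.04, 6.73 and 6.62 in PEA2, a log2FC of 1.54 (SE 0.14, FDR 1.13e-08). It fell in PEO4, with 6.51, 6.55 and 6.62 in PEO1 and 6.06, 6.03 and 6.18 in PEO4, a log2FC of -0.47 (SE 0.14, FDR 0.0112). The libraries of the 2 lines did not overlap in any pair.

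BIK, a BH3-only protein found at the endoplasmic reticulum, showed the largest fitted difference of any member in any pair, though against a line with no reads. No read was recorded in the 3 PEA1 libraries, whereas PEA2 held 42, 121 and 70 reads, or 22.4, 34.8 and 32.0 CPM. PEA2 was therefore at least 14.8-fold higher, taking 3 reads in each PEA1 library as the floor, and the lowest PEA2 library was at least 10.3-fold above the highest PEA1 floor. The fitted log2FC of 6.46 (SE 0.59, FDR 1.03e-08) depends on the small addition to each count, and was 4.50 with 2 reads added. A2780 held 0, 1 and 3 reads and CP70 4, 6 and 4 reads. The ratio of CP70 to A2780 was 2.40 (95% counting interval 0.754 to 10.0), and the limma difference of 1.33 did not pass the test (FDR 0.0790), although it was 2.25 without A2780 replicate 3 (FDR 0.000831).

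BIK values in the PEO pair were 3.49, 3.30 and 3.43 in PEO1 and 2.11, 2.70 and 1.61 in PEO4. All PEO4 libraries were lower, with a log2FC of -1.27 (SE 0.59) that did not pass the test (FDR 0.0915). It passed in 6 of the alternatives, which were the pair fitted alone (FDR 0.00283), quantile normalisation (FDR 0.0126), voom weights (FDR 0.00714), 2 reads added (FDR 0.0219) and the fits without A2780 replicate 1 (FDR 0.0320) or 3 (FDR 0.0204). The 2 A2780 libraries enter through the shared estimate of the spread. Quantile normalisation and the added reads also changed the values, to a log2FC of -1.94 and -1.15.

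Both BID and BIK lie on chromosome 22, whose genes were higher in PEA2 as a whole. Over 289 genes of that chromosome other than BIK, the median log2FC in the PEA pair was 1.25, and 77.5% were higher in PEA2 (FDR below 0.05). Of the 17 genes within 1 Mb of BIK, 15 were higher and 0 lower, with a median of 1.22 and a highest value of 3.56. BIK, at a fitted 6.46, exceeded each of them. Within 1 Mb of BID, 9 of 14 genes were higher and 3 lower, with a median of 0.95, beside 1.54 for BID. In the PEO pair the genes near BIK were lower in PEO4, with 10 of 17 lower, 2 higher and a median of -0.79. Copy number was not measured here either, and its part in these values was not tested.

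BMF, which is known to be held at the cytoskeleton through dynein light chain and freed by loss of attachment, was lower in PEA2 and PEO4. Values were 4.77, 4.18 and 4.31 in PEA1 and 2.62, 2.56 and 3.54 in PEA2, a log2FC of -1.51 (SE 0.32, FDR 0.000400). They were 4.50, 4.26 and 4.48 in PEO1 and 2.42, 2.77 and 2.98 in PEO4, a log2FC of -1.69 (SE 0.32, FDR 0.000253). In both pairs the libraries of the lines were apart. In A2780 and CP70, BMF was close to the limit of detection, with 2 to 5 reads in every library, and the difference of -0.46 had a 95% interval of -1.13 to 0.21.

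The genes near BMF on chromosome 15 were also lower in PEO4. Of 26 genes within 1 Mb, 15 were lower and 0 higher, with a median log2FC of -0.72, while BMF itself was at -1.69. In the PEA pair 8 of the same genes were higher and 7 lower in PEA2, with a median of 0.01 and a lowest value of -3.08, beside -1.51 for BMF. The plot of neighbouring genes shows BAK1, BIK and BMF beside the genes around them.

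**Figure D4:**
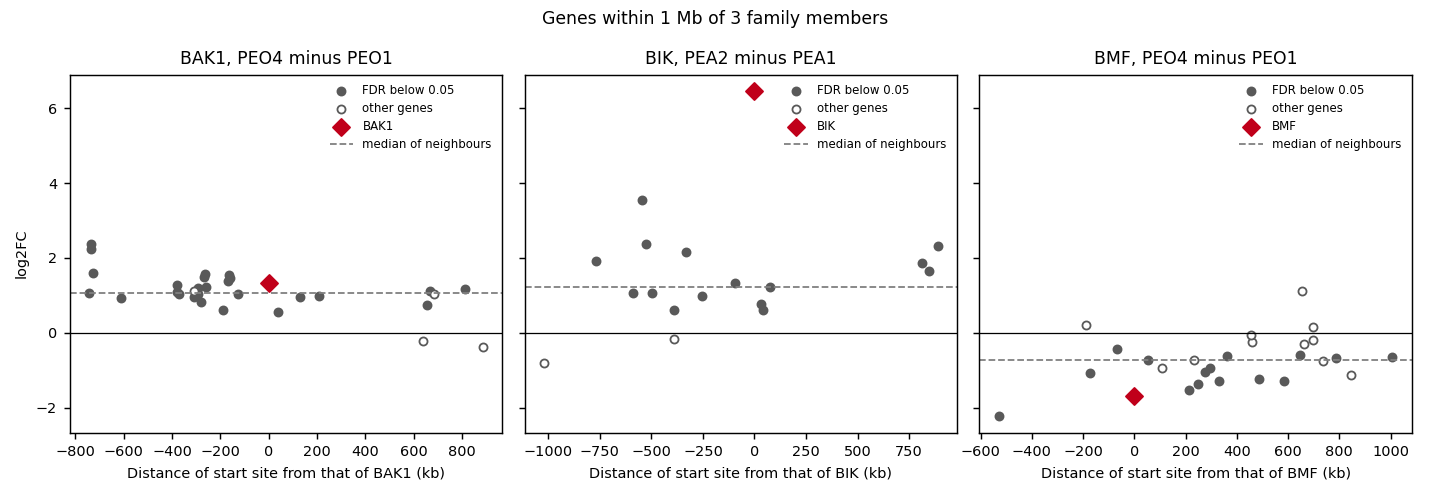
log2FC of the genes whose span lies within 1 Mb of BAK1 (PEO pair), BIK (PEA pair) and BMF (PEO pair), against the distance between start sites in kb, filled where the FDR is below 0.05, with the family member as a diamond and the median of its neighbours as a dashed line. BAK1, at 1.32, lies near its neighbours' median of 1.07, while BIK, at 6.46, and BMF, at -1.69, lie beyond their medians of 1.22 and -0.72.

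PMAIP1 encodes NOXA, which neutralises MCL1. It was near 0 in A2780 and CP70 and well expressed in the serous lines. A2780 held 1, 0 and 1 reads and CP70 3, 11 and 4 reads, and CP70 replicate 1 lay below A2780 replicate 3 on the log2 scale. The limma difference of 1.89 (SE 0.48) passed the test (FDR 0.00366), but it was 0.93 with 2 reads added (FDR 0.0371), 1.21 without A2780 replicate 2 (FDR 0.0277) and lost with quantile normalisation (FDR 0.0569). From the summed reads, 18 against 2, the ratio was 6.17 with a 95% counting interval of 1.48 to 54.9. In this pair the call on PMAIP1 thus rests on few reads.

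In the PEA pair PMAIP1 was lower in the resistant line. Values were 6.07, 6.10 and 5.90 in PEA1 and 4.40, 4.90 and 4.59 in PEA2, with no overlap and a log2FC of -1.40 (SE 0.48, FDR 0.0171). The FDR was 0.0524 without PEA2 replicate 1. In the PEO pair the values were 4.98, 5.25 and 5.24 in PEO1 and 5.68, 5.86 and 5.83 in PEO4. Every PEO4 library was higher, and the difference of 0.64 (SE 0.48) did not pass the test (FDR 0.318) in the fit of all lines, where the SD of PMAIP1 was 1.23 in A2780, 1.13 in CP70 and 0.10 to 0.25 in the serous lines. It passed when the pair was fitted alone (FDR 0.000532) and with voom weights (FDR 0.00265).

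BCL2L1, BMF and PMAIP1 were the members whose 6 libraries of A2780 and CP70 all lay below the 12 libraries of the serous lines, which held for 13.2% of all genes. No member lay above in the same way, which held for 9.62%. For BMF the ranges were -0.44 to 0.62 and 2.42 to 4.77. For PMAIP1 they were -2.95 to 1.45 and 4.40 to 6.10. The A2780 pair and the serous pairs differ in origin, in how resistance arose and in the marker genes described above, and these cannot be told apart here.

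Some neighbouring lines in the order of levels could not be separated. For BCL2L2 and BAK1, 4 of the 5 steps in the order from highest to lowest joined lines with overlapping libraries. BMF had 3 such steps. BCL2, BCL2L11, BID and BIK had 2 each, and BCL2L1, MCL1 and PMAIP1 had 1 each, which was the step between A2780 and CP70 for BCL2L1 and PMAIP1 and that between PEO4 and PEO1 for MCL1.

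A linear model over all 3 pairs, with the pair as a covariate, asked which members differed between resistant and sensitive lines on average. BCL2 (log2FC -1.76, SE 0.58, FDR 0.0367), MCL1 (-0.31, SE 0.08, FDR 0.0127) and BMF (-1.22, SE 0.23, FDR 0.00151) were lower, against 24.1% of all genes called in either direction. The BCL2 call was lost without any 1 of the 6 PEA libraries (FDR 0.0660 to 0.0730), without PEO1 replicate 2 (0.0514) or PEO4 replicate 2 (0.0595), and with voom weights (0.328). MCL1 and BMF remained below 0.05 in every fit to the libraries. The libraries of a line are not independent lines, and with the 3 pair differences as the replicates 0 members passed in limma, and 0 also at an unadjusted p below 0.05. The smallest of those unadjusted values was 0.0927 for BMF, and 0 of all genes passed with an FDR below 0.05.

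For the genes with which the members work, 5 lists are described, with 60 genes of which 49 were in the table. In CP70, 22 of the 49 changed (44.9%, 17 higher and 5 lower), in PEA2 27 (55.1%, 19 higher and 8 lower) and in PEO4 23 (46.9%, 7 higher and 16 lower). The shares over all genes, against which each count below is to be read, were 39.9%, 61.9% and 41.5%, so that the lists as a whole lay near them.

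The other proteins of the family were represented by 6 genes, of which 3 (50.0%), 3 (50.0%) and 2 (33.3%) passed in the A2780, PEA and PEO pairs, with 39.9%, 61.9% and 41.5% over all genes. BAX, the partner effector of BAK1, was lower in CP70 (-0.55, SE 0.16, FDR 0.0106) and higher in PEA2 (0.41, FDR 0.0346). BCL2L13 was higher in CP70 (0.69, FDR 0.000466) and in PEA2 (1.36, FDR 5.73e-08). It lies on chromosome 22 and is among the 14 genes counted within 1 Mb of BID. The median log2FC over that chromosome in the PEA pair was 1.25. BOK, an effector-like member, was lower in PEA2 (-1.09, FDR 6.53e-06) and in PEO4 (-1.05, FDR 2.18e-05). The other family gene that passed in PEO4 had a larger fitted difference (-5.24, FDR 1.22e-08). It held up to 94 reads in a PEO1 library and at most 1 in a PEO4 library, too few for the rule on named genes. Of 11 BNIP genes and binding partners, 3 were higher in CP70 (27.3%) and 4 in PEA2 (36.4%), both shares below that over all genes, with none lower, and 6 (54.5%) changed in PEO4, 3 in each direction. These included BNIP3, a mitochondrial protein induced by low oxygen (1.11 in CP70, FDR 1.59e-05, 0.46 in PEA2, FDR 0.0227, and 0.46 in PEO4, FDR 0.0334), DYNLL2, the light chain that holds BMF (0.72 in CP70, FDR 3.38e-06, and 1.55 in PEA2, FDR 3.22e-11), and the channel gene VDAC1 (0.75, FDR 1.34e-06) and BNIP2 (-0.79, FDR 6.35e-06) in the PEO pair.

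Among 12 genes for enzymes that turn over or modify members, 4 (33.3%) changed in CP70 (all higher), 9 (75.0%) in PEA2 (6 higher, 3 lower) and 8 (66.7%) in PEO4 (2 higher, 6 lower), beside 39.9%, 61.9% and 41.5% of all genes. CASP8, whose protease cleaves BID, was higher in CP70 (1.29, SE 0.16, FDR 1.15e-06) and in PEO4 (0.44, FDR 0.0286). CAPN1, a calpain, was higher in PEA2 (2.71, FDR 3.69e-14) and CP70 (0.45, FDR 0.00136) and lower in PEO4 (-0.58, FDR 0.000119). USP13, a deubiquitinase, was lower in PEA2 (-1.15, FDR 2.30e-09) and in PEO4 (-1.25, FDR 2.50e-09). BTRC, a ubiquitin ligase subunit, was higher in PEO4 (1.01, FDR 0.000394).

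Of the 7 genes for mitochondrial release and the apoptosome, 3 (42.9%), 4 (57.1%) and 1 (14.3%) changed in the A2780, PEA and PEO pairs, which is near or below the 39.9%, 61.9% and 41.5% of all genes. CYCS, cytochrome c, was lower in CP70 (-0.65, FDR 0.000935) and PEO4 (-0.37, FDR 0.0410) and higher in PEA2 (0.67, FDR 0.000373). CASP9, the caspase of the apoptosome, was higher in CP70 (1.03, SE 0.34, FDR 0.0196), and DIABLO, which relieves caspase inhibition, was lower in PEA2 (-0.86, FDR 0.0165). Of 13 transcription factors known to act on members, 9 (69.2%), 7 (53.8%) and 6 (46.2%) changed. TP73 was higher in CP70 (2.33, FDR 0.00713), while FOXO4 was lower there (-2.18, FDR 0.0269) and higher in PEA2 (2.18, FDR 0.0178) with 0 reads in a library of each pair. HIF1A was lower in PEA2 (-0.32, FDR 0.00829) and higher in CP70 (0.39, FDR 0.00369), and WT1 was higher in PEO4 (1.44, FDR 0.00243). FOXO1 was lower in PEO4 (-1.89, FDR 2.06e-05) but higher in CP70 (0.97, FDR 0.0103) and in PEA2 (FDR 2.82e-12), where PEA1 libraries held at most 3 reads and PEA2 libraries up to 282.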

How the data were processed

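RNA-seq values of 18 libraries were used, 3 for each of 6 lines, grouped by the labels. The authors aligned reads, assigned them to known genes of hg19 with featureCounts, normalized them with limma and deposited log2 CPM values for 12853 genes (the submitters' processing notes name Bowtie2, featureCounts and limma, without versions). Whole reads were recovered from all deposited values and gave depth and counting intervals (exact, 95%, counting error only). Tests on the deposited log2 values used limma (version 3.58.1, R 4.3.3), in 1 fit with a mean for each line and a trend of variance with expression, with FDR by the Benjamini-Hochberg method over all genes. The study's threshold of |log2FC| above 2, |log2FC| above 1, pairs fitted alone, quantile normalization, no trend, the replicate block, a filter that kept a mean log2 above 0 (355 genes fewer), voom weights, 2 reads added, the 3 pair differences as replicates and leaving out each library were alternatives. Windows of more than 1 Mb around a member were added after seeing the data. Coding bases, exon lengths and gene spans came from GENCODE on GRCh37, the assembly that hg19 names. The calculations were tested on simulated data.

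The members, gene lists and markers were chosen with earlier results of these data known. Named genes are the 10 members, the gene of each list with the highest and the lowest log2FC in each pair among those with an FDR below 0.05 and more than 3 reads in a library of both lines, and the 2 genes most like each of the 3 members with the widest range. Some genes under this rule, and 1 of the 6 gene lists, are not reported here. Same-numbered libraries of a pair did not deviate together (correlations -0.0382 to 0.0782), so numbers were not taken to pair libraries.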

Additional observations from a re-analysis of the deposited data

Results flagged for a closer look

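Each member was singled out because its change between the resistant and the sensitive line differed among the 3 pairs in limma's F-test of the difference. The FDR of that difference was 9.77e-08 for BCL2, 1.17e-07 for BCL2L11, 1.24e-07 for BID and 3e-07 for BIK. It was 0.000304 for BCL2L2, 0.000414 for MCL1, 0.000904 for PMAIP1 and 0.00164 for BAK1. It was 0.0104 for BCL2L1 and 0.0394 for BMF. For BCL2L11, BID and PMAIP1 a rise in CP70 stood against a fall in PEO4 or PEA2, each past the test. For the other 7 members the pairs differed in size, or in a direction that passed the test in fewer pairs. Since 75.3% of all genes differed among the pairs in the same test, the 10 of 10 members do not stand far above the background. The difference for BMF passed narrowly, and its FDR ranged from 0.0133 to 0.104 over the alternatives. It was lost with voom weights (FDR 0.0717). It was also lost without A2780 or CP70 replicate 2 or 3, and without PEA2 or PEO4 replicate 1 or 2. The same held without PEA1 replicate 1 and without PEO1 replicate 1 or 3. The difference for BCL2L1 was lost with quantile normalization alone (FDR 0.141). Groups of 3 libraries are too small for a search for outlying samples, and none was made.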

How the results depend on the processing

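Of the 990 values of single members under the alternatives, 944 kept their direction and their side of the threshold, 15 lost the call, 20 gained it and 11 changed sign, none of those past the test. Much of the agreement in direction was fixed in advance. A pair's log2FC cannot change without a library of another pair, with the pair fitted alone, without the trend, with the filter or with the block. In those fits only the FDR could move. With |log2FC| above 2 as well, 1, 2 and 0 members passed in the A2780, PEA and PEO pairs (9.06%, 14.1% and 6.22% of all genes), and with |log2FC| above 1, 2, 6 and 4 did (19.2%, 33.6% and 18.8%); these rules leave out small changes by construction. The linear model called 0 members with the 3 pair differences as replicates. Leaving out each library gave 4 to 5 calls for CP70, 7 to 8 for PEA2, 5 to 6 for PEO4, 9 to 10 for the difference among pairs, 10 among lines and 2 to 5 in the linear model, where 5 came without PEO4 replicate 3. BID entered the linear model without any 1 of the 6 PEO libraries (FDR 0.0372 to 0.0489), and BIK without A2780 replicate 3 (0.0467) or PEO4 replicate 3 (0.0463).

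Signs changed for BCL2L1 in the linear model (0.0066, 0.016, 0.0082 and 0.0080 without A2780 replicate 1, CP70 replicate 2, PEO1 replicate 3 and PEO4 replicate 2, within a range of -0.068 to 0.016 over left-out libraries), for BCL2L11 there (-0.25 with voom weights and -0.022 without A2780 replicate 1, with 0.32 as the highest value over left-out libraries) and for PMAIP1 there (-0.039 with voom weights). They changed for MCL1 in the PEO pair (-0.026 without PEO1 replicate 1 and -0.016 without PEO4 replicate 2, up to 0.077) and for BAK1 in the A2780 pair (0.040 without A2780 replicate 1 and 0.0076 without CP70 replicate 3, down to -0.25). The cause was not tested. Quantile normalization moved the median log2FC of all genes in the PEA pair from 0.01 to -0.10, and BCL2L1 there from 0.29 to 0.10.

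With the replicate number as a block, 4, 8 and 5 members were called in the A2780, PEA and PEO pairs, 10 among lines and 10 among pairs, and 2 in the linear model, where BCL2 was lost (FDR 0.0588). In each pair, 1 of the 3 numbers correlated best with itself. Depth limits BIK, PMAIP1 and BMF in A2780 and CP70, where few reads were counted, and BIK in PEA1, where there were 0. It also limits BCL2 in PEA2 and PEO4, with 1 to 5 and 4 to 11 reads in a library.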

Other observations

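For the 3 members with the widest range among lines, the genes with the most similar values over the 18 libraries were sought among 12317 genes with a symbol. Libraries of a line share that line, so the 18 points fall into 6 clusters and the coefficients only describe likeness. PMAIP1 was most like SRGAP1 (Pearson's r 0.977) and CAPG (0.974), the second of which encodes an actin-capping protein. CAPG had mean values of 0.86 in A2780 and 1.83 in CP70 and of 5.23 to 7.35 in the serous lines. BIK was most like SH2D3A (0.962), which was near or below 1 log2 CPM in A2780, CP70 and PEA1 and at 6.19 in PEA2, and like DMXL1 (0.960). BCL2 was most like NAV1 (0.962), whose mean was 8.26 in PEA1, its highest, and lowest in PEA2, and like USP14 (0.945), a gene that also lies on chromosome 18.

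BCL2 and PMAIP1, which both lie on chromosome 18, were lower in PEA2. Over 190 genes of chromosome 18 other than BCL2, the median log2FC in the PEA pair was -0.80. Within 1 Mb of BCL2 the median of 9 genes was -0.09, beside -4.65 for BCL2, and within 1 Mb of PMAIP1 that of 5 genes was -0.39, beside -1.40. In the A2780 pair the 5 genes near PMAIP1 had a median of -0.55, while PMAIP1 was higher in CP70.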
